A study of Mus musculus with 12 samples.

Results

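The matrix metalloproteinases (MMPs), the ADAMTS enzymes, the ADAMTS-like proteins (ADAMTSL) and the tissue inhibitors of metalloproteinases (TIMPs) were described across 4 cell populations of mouse skin. Members were all rows whose gene symbol is Mmp, Adamts, Adamtsl or Timp followed by a number, with an optional letter for the MMPs. This gave 51 genes of the 24692 in the table, namely 23 MMP, 19 ADAMTS, 5 ADAMTSL and 4 TIMP genes. Male mice at about postnatal day 26 to 27 gave the back skin, in early anagen, the start of a hair growth cycle. All mice, in every group, carried the Sox2:GFP and aSMA:dsRed reporters, so there was no group without them. Skin was digested with dispase and collagenase, itself a mixture of matrix-degrading enzymes, and cells were sorted by flow cytometry. The groups were hair follicle dermal stem cells (replicates 1, 2 and 4), dermal papilla (1, 2 and 4), dermal sheath (1, 4 and 5) and interfollicular dermis (1, 2 and 6), with 3 libraries each. The library used here as sheath replicate 1 is titled DSL1, unlike DS4 and DS5, and the labels do not say what the L stands for, so its number, which enters the replicate block over all 12 libraries, is uncertain. The populations are called stem cells, papilla, sheath and interfollicular dermis below. The labels do not state whether the 3 libraries of a group are different animals, so each p-value reflects the spread of these libraries alone, and that spread may be technical.

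Matrix metalloproteinases are zinc enzymes that cut collagens, gelatin, laminins and other matrix proteins. Most are secreted as inactive proenzymes, and a few are held in the membrane. ADAMTS enzymes are secreted metalloproteinases with thrombospondin repeats that trim procollagens and cut the proteoglycans aggrecan and versican. ADAMTS-like proteins share the repeats but lack the protease domain, and several bind fibrillin microfibrils. TIMPs bind and block the active enzymes, and Timp3 is known for staying attached to the matrix and for inhibiting ADAM and ADAMTS enzymes as well as MMPs. In the hair follicle the dermal papilla is the signalling cluster at the base, the sheath wraps the follicle, and dermal stem cells replenish the sheath.

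Of the MMP genes, 10 lie side by side on chromosome 9, and stretches of 4 of their promoters are shown because these neighbours differed widely in level. The cluster spans 7272514 to 7699585 (427.1 kb, GRCm38.p6) in the order Mmp13, Mmp12, Mmp1b, Mmp3, Mmp1a, Mmp10, Mmp8, Mmp27, Mmp20 and Mmp7. Each line gives the 120 bases just before the RefSeq start of the gene, 5′ to 3′ on the gene's own strand, which is the plus strand for all 4. Capitals mark a match to the AP-1 motif TGANTCA or to the TATA box letters TATAAA. Mmp13 is at chr9:7272394-7272513, Mmp3 at chr9:7445702-7445821, Mmp10 at chr9:7502222-7502341 and Mmp27 at chr9:7571276-7571395.
Mmp13: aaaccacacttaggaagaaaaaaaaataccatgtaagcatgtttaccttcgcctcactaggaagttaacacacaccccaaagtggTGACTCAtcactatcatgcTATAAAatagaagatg
Mmp3: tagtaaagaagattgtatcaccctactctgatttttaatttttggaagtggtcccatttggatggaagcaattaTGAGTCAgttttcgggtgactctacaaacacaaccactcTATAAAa
Mmp10: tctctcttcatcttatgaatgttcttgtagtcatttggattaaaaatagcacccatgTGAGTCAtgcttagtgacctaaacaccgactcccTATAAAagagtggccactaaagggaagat
Mmp27: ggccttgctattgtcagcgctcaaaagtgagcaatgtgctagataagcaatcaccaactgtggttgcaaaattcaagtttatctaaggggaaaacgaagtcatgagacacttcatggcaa
The AP-1 match begins 35 bases before the start in Mmp13, 46 bases before it in Mmp3 and 63 bases before it in Mmp10. The AP-1 motif reads the same on both strands, and it does not overlap the TATAAA match in these windows. Promoters of 250 bases before to 50 bases after the start were found in the RefSeq table for 36 of the 51 members. The AP-1 letters occurred in 8 of these 36, namely Mmp1a, Mmp1b, Mmp3, Mmp7, Mmp10, Mmp12, Mmp13 and Mmp20, against 7.81% of all 32851 promoters of that length. All 8 lie in the chromosome 9 cluster, whose other members are Mmp8 and Mmp27. The Mmp12 match is in the window chr9:7347254-7347373, before an inner start of the gene. None is in chr9:7344277-7344396, before its outer start. For both motifs members were counted as genes with a match in any of their 39 promoters, while the percentages are shares of promoters. TATAAA was found on the gene's strand in 11 of the 36, 8 of them in the cluster, against 8.32% of all promoters, and on either strand in 12 against 13.62%. A match is a description of the letters, and Mmp27 shows only that they are not in its window.

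Before the values, the libraries were checked against their labels. The summed level of 10 fibroblast markers was 9462 to 12225 FPKM in stem cells and 13431 to 24085 in papilla, but 980 to 1924 in the libraries labelled sheath and 819 to 1560 in those labelled interfollicular dermis. Levels are in FPKM, a count of fragments corrected for transcript length and library size. All 10 fibroblast markers were lower in both of the latter populations than in stem cells. The 7 smooth muscle and pericyte markers summed to 1511 to 1738 in stem cells, 66.3 to 215 in papilla, 159 to 353 in sheath and 17.5 to 56.2 in interfollicular dermis. Of the 11 keratinocyte markers, 6 were higher and 2 lower in sheath than in stem cells, and 7 were higher and 1 lower in interfollicular dermis, with median log2 differences of 1.49 and 1.74. Trp63, a transcription factor of basal keratinocytes, was at 9.23 to 20.8 FPKM in stem cells and 8.86 to 24.8 in papilla, but 98.7 to 147 in sheath and 75.8 to 98.1 in interfollicular dermis. The differentiation keratins Krt1 and Krt10 instead averaged highest in papilla, at 438 and 1528, against 10.5 and 53.4 in sheath. With these the keratinocyte markers summed to 637 to 1222 in stem cells, 1143 to 3370 in papilla, 1094 to 1253 in sheath and 1107 to 1639 in interfollicular dermis. In the same order proliferation markers summed to 17.7 to 52.0, 12.8 to 25.5, 257 to 345 and 182 to 229. The melanocyte markers summed to 16.6 to 89.0, 197 to 819, 10.6 to 20.0 and 153 to 934. The 11 dermal papilla markers summed to 312, 578 and 1864 in papilla replicates 1, 2 and 4, and to 206 to 422 in stem cells. Papilla replicate 1 was thus below stem cells replicate 4. These sums were 45.9 to 135 in sheath and 140 to 250 in interfollicular dermis. Of the 11, papilla was higher than interfollicular dermis for 9 and lower for 1, and higher than stem cells for 2 and lower for 0. Lef1 averaged 19.4 FPKM in papilla but 87.0 in interfollicular dermis, and Corin averaged 54.9 in papilla but 90.9 in stem cells. In bulk samples, fewer cells of a type and less RNA per cell cannot be told apart, and the part that these differences play in the results was not tested.

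Of the 51 genes, 38 passed the filter of at least 1 FPKM in at least 3 libraries and were tested. By the moderated F test of limma over the 4 populations, 31 of the 38 differed at an adjusted p under 0.05, and 56.8% of all 12774 tested genes did so. The 31 were 11 of 14 MMP, 13 of 16 ADAMTS, 4 of 4 ADAMTSL and 3 of 4 TIMP genes. The 7 that did not pass were Mmp13, Mmp15, Mmp16, Adamts3, Adamts8, Adamts20 and Timp4. Of all 51 genes, 34 reached 1 FPKM in each of the stem cell libraries, 30 to 34 in papilla, 16 to 23 in sheath and 15 to 26 in interfollicular dermis. The share of all genes that reached 1 FPKM in each library was not computed, so these counts are not read as a trait of the families.

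Most differences set stem cells and papilla above the libraries labelled sheath and interfollicular dermis. Sheath was lower than stem cells for 25 of the 38 members and higher for 1, where 19.6% and 24.3% of all tested genes were lower and higher. Interfollicular dermis was lower than stem cells for 27 and higher for 0, where 17.9% of all genes were lower and 19.7% higher. Papilla was higher than sheath for 20 members and lower for 1, where 16.4% of all genes were higher and 33.4% lower. Against interfollicular dermis, papilla was higher for 21 and lower for 1, where 13.7% of all genes were higher and 28.6% lower. These comparisons share libraries and are not separate evidence. The median log2 difference of the 38 members was -1.85 for sheath minus stem cells and -1.99 for interfollicular dermis minus stem cells, beside medians of 0.13 and 0.14 over all tested genes. It was 0.98 for papilla minus sheath and 1.25 for papilla minus interfollicular dermis, beside -0.36 and -0.32 over all genes.

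Within each of these pairs fewer members differed than between them. Papilla was lower than stem cells for 7 members and higher for 0, where 6.38% of all genes were lower and 2.31% higher. The members' median difference was -0.44 on the log2 scale, beside -0.25 over all genes. Sheath and interfollicular dermis differed for a single member, Timp3, higher in the sheath, where 0.939% of all genes were higher and 1.32% lower. The split between higher and lower calls over all genes depended on how libraries were scaled. For papilla minus stem cells 26.6% of the calls were higher as deposited, 46.7% with median-of-ratios scaling and 51.4% with quantile normalization. For papilla minus sheath the shares were 32.9%, 51.9% and 43.4%, for papilla minus interfollicular dermis 32.3%, 52.7% and 44.7%, and for sheath minus stem cells 55.4%, 44.8% and 56.5%. Under median-of-ratios scaling the all-gene median shifted by 0.18 for papilla minus stem cells, 0.35 for papilla minus sheath, 0.29 for papilla minus interfollicular dermis, -0.17 for sheath minus stem cells and -0.12 for interfollicular dermis minus stem cells. With quantile normalization the first 3 of these shifted by 0.23, 0.21 and 0.20.

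**Figure D1:**
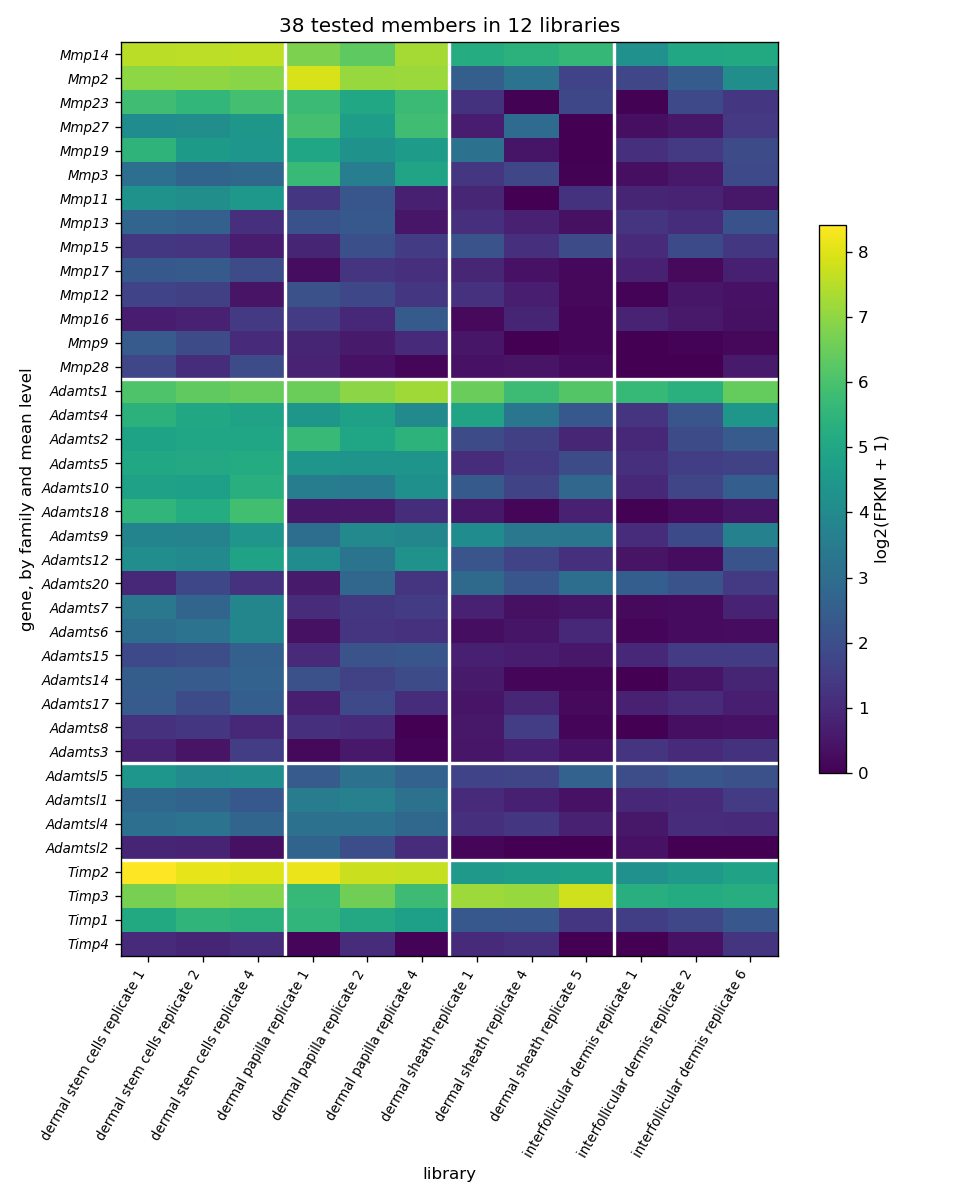
Level of the tested members in each of the 12 libraries, as log2(FPKM + 1), with genes as rows and libraries as columns grouped by population. Most rows are brighter in the 6 stem cell and papilla libraries than in the other 6, and Adamts1 and Timp3 are bright in all 12.

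Among the MMP genes, the membrane-bound Mmp14 and the gelatinase Mmp2 had the highest levels. Together they held 62.3% to 86.4% of the summed MMP level in the 12 libraries. Mmp14 (chromosome 14, 54431598 to 54442456) encodes MT1-MMP, which cuts fibrillar collagen at the cell surface and activates the proenzyme of Mmp2. Mmp14 was at 183, 189 and 194 FPKM in stem cells, 107, 79.4 and 154 in papilla, 36.0, 41.3 and 47.5 in sheath and 18.2, 32.2 and 33.2 in interfollicular dermis. The stem cell libraries were above all others, and neither low population overlapped papilla. Mmp14 was lower in sheath (log2 difference -2.16, SE 0.28, adjusted p = 7.12e-05) and in interfollicular dermis (-2.76, SE 0.28, adjusted p = 1.3e-05) than in stem cells. Papilla minus stem cells was -0.78 and did not pass (adjusted p = 0.101), but it passed without papilla replicate 4 (-1.02, adjusted p = 0.0338).

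Mmp2 (chromosome 8, 92827290 to 92853421), which cuts denatured collagen and basement membrane collagen, was at 127, 128 and 120 FPKM in stem cells, 237, 136 and 140 in papilla, 4.78, 8.25 and 2.22 in sheath and 2.48, 4.51 and 16.7 in interfollicular dermis. Every stem cell and papilla library was above every other library. The log2 difference from stem cells was -4.50 in sheath (SE 0.51, adjusted p = 3.04e-05) and -4.18 in interfollicular dermis (SE 0.51, adjusted p = 6.2e-05). Interfollicular dermis replicate 6 was the highest of its group for Mmp2, as it was for several members below, and without it the latter difference was -4.85.

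Mmp23 (chromosome 4, 155650655 to 155654539), another enzyme anchored in the membrane, was at 55.8, 45.9 and 59.2 FPKM in stem cells, 52.3, 31.1 and 52.0 in papilla, 1.36, 0.0454 and 2.56 in sheath and 0.0446, 2.59 and 1.49 in interfollicular dermis. It overlapped between the first 2 populations and was lower than in stem cells by a log2 difference of -4.72 in sheath (SE 0.48, adjusted p = 1.36e-05). Mmp19 (chromosome 10, 128790910 to 128800827), a secreted enzyme, was at 43.5, 23.2 and 20.5 in stem cells, 30.6, 18.4 and 24.0 in papilla, 8.0, 0.398 and 0 in sheath and 1.2, 1.70 and 2.91 in interfollicular dermis. The sheath libraries spread widely, and replicate 1 was the highest of them. Mmp19 was lower in sheath than in stem cells by a log2 difference of -3.61 (SE 0.64, adjusted p = 0.000702), which was -4.59 without sheath replicate 1 and -3.01 without sheath replicate 5.

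Mmp11 separated stem cells from all other populations. It encodes stromelysin-3, which is activated inside the cell by furin-type proteases (chromosome 10, 75923221 to 75932502). Mmp11 was at 18.4, 16.9 and 21.5 FPKM in stem cells, 1.51, 3.71 and 0.650 in papilla, 0.856, 0 and 1.37 in sheath and 0.825, 0.753 and 0.460 in interfollicular dermis. The lowest stem cell library was above every other library. Against stem cells the log2 difference was -2.88 in papilla (SE 0.40, adjusted p = 0.00103), -3.60 in sheath (SE 0.40, adjusted p = 2.44e-05) and -3.57 in interfollicular dermis (SE 0.40, adjusted p = 2.89e-05).

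In contrast to Mmp11, Mmp3 and Mmp27 had their highest levels in papilla. Mmp3 encodes stromelysin-1, a broad matrix protease, and was at 7.44, 5.58 and 5.99 FPKM in stem cells, 51.3, 11 and 28.9 in papilla, 1.54, 2.46 and 0.0296 in sheath and 0.284, 0.496 and 2.66 in interfollicular dermis. Mmp27, a secreted enzyme related to the stromelysins, was at 16.2, 16.7 and 20.9 in stem cells, 60.3, 25.5 and 56.1 in papilla, 0.553, 6.73 and 0 in sheath and 0.270, 0.454 and 1.65 in interfollicular dermis. For both genes every papilla library was above every stem cell library, but papilla replicate 2 was far below replicates 1 and 4. Mmp3 was higher in papilla than in sheath (log2 difference 3.67, SE 0.57, adjusted p = 0.000243) and than in interfollicular dermis (3.80, SE 0.57, adjusted p = 0.000289), and so was Mmp27 (4.31 and 4.74, SE 0.61 each, adjusted p = 0.000136 and 0.000106). The sheath difference of Mmp27 was 5.18 without sheath replicate 4 and 3.71 without sheath replicate 5. Against stem cells the difference of Mmp27, 1.27, did not pass (adjusted p = 0.217). That of Mmp3 was 1.87 (SE 0.57, adjusted p = 0.0619), and it passed without papilla replicate 2 (2.44, adjusted p = 0.0235), with the replicate number as a block over all 12 libraries (1.87, adjusted p = 0.0253), with median-of-ratios scaling (2.09, adjusted p = 0.0437) and with quantile normalization (2.04, adjusted p = 0.0358). With the block in the 6 libraries of this comparison it did not pass (1.87, adjusted p = 0.0533). Mmp3 was lower than in stem cells in both sheath (-1.81, adjusted p = 0.0212) and the interfollicular libraries (-1.93, adjusted p = 0.0182). Both of these calls ended without stem cells replicate 1 (-1.70 and -1.82, adjusted p = 0.0664 and 0.06). The sheath call also ended without sheath replicate 5 (-1.30, adjusted p = 0.0972), and the interfollicular call without interfollicular dermis replicate 1 (-1.64, adjusted p = 0.0746) or 2 (-1.75, adjusted p = 0.0647).

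The plot of the cluster in its genomic order shows how uneven the neighbours were. Mmp3 and Mmp27 averaged 30.4 and 47.3 FPKM in papilla, while Mmp10, which lies between them and encodes stromelysin-2, was at most 1.41 in any library. Mmp1a and Mmp8, also between them, did not exceed 0.0324 and 0.499. Mmp13, a collagenase, was at 5.63, 4.99 and 1.22 in stem cells, 3.30, 4.0 and 0.410 in papilla, 1.27, 0.707 and 0.299 in sheath and 1.43, 1.12 and 3.38 in interfollicular dermis, and the populations overlapped. In the promoter stretches printed above, the AP-1 letters are present in Mmp3, which was high in papilla, and in Mmp10, which was low in all libraries, and they are not in the window of Mmp27.

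**Figure D2:**
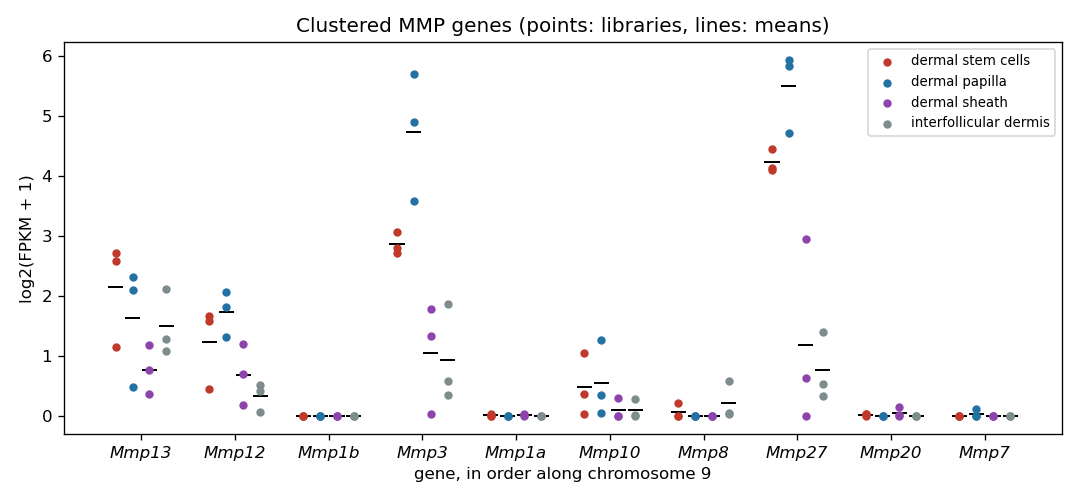
Level as log2(FPKM + 1) of the 10 chromosome 9 MMP genes, in their order along the chromosome, with points for libraries coloured by population and short lines for means. Mmp3 and Mmp27 stand above their neighbours in papilla and stem cells, and Mmp1b is listed at 0 in all 12 libraries.

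The remaining tested MMP genes were low. Mmp9, Mmp12, Mmp15, Mmp16, Mmp17 and Mmp28 did not average above 5 FPKM in any population. Mmp9, the gelatinase abundant in neutrophils and macrophages, was at 4.32, 2.80 and 1.0 FPKM in stem cells, and Mmp12, the macrophage elastase, at 2.2, 2.0 and 0.372. The summed level of myeloid markers in the same 3 libraries was 2187, 852 and 58.7, from 10 genes found of 12 listed, with the neutrophil gene Elane at 0 in all 12 libraries. The sums were 115 to 475 in papilla, 11.6 to 69.9 in sheath and 49.5 to 150 in interfollicular dermis. Mmp13 and Mmp19 above follow the same order over the stem cell libraries, and so do other members, among them Timp2, Adamts4 and Adamtsl1. In papilla replicates 1, 2 and 4 the myeloid sums were 475, 188 and 115. Mmp9 was at 0.840, 0.525 and 1.06 FPKM in these libraries, highest where the sum was lowest. Mmp12 followed the order of the sums within papilla, but averaged higher in papilla (2.41) than in stem cells (1.53). The part of myeloid cells in these levels was not tested.

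Mmp17 and Mmp28, a membrane-anchored and a secreted enzyme, were lower in papilla than in stem cells, at low levels. Mmp17 was at 3.97, 4.17 and 2.9 FPKM in stem cells and 0.207, 1.39 and 1.24 in papilla (log2 difference -1.32, SE 0.33, adjusted p = 0.0275). Mmp28 was at 2.43, 1.16 and 2.84 in stem cells and 0.783, 0.337 and 0.0966 in papilla (-1.15, SE 0.31, adjusted p = 0.037). The groups did not overlap for either gene. Mmp28 reached 1 FPKM only in the 3 stem cell libraries, so it passed the filter only through the population where it is high. Its separation and its call carry that limit. Both calls ended with the replicate block, over all 12 libraries (adjusted p = 0.0521 for Mmp17 and 0.0529 for Mmp28) and in the 6 libraries of this comparison (0.0886 and 0.0949). They also ended with a pseudocount of 0.1 (adjusted p = 0.121 and 0.126) or 0.5 (0.0505 and 0.0531), and that of Mmp28 with median-of-ratios scaling (0.0577) and quantile normalization (0.151). Mmp17 also lost its call without a filter (adjusted p = 0.0513), and without stem cells replicate 1 (adjusted p = 0.0955) or 2 (0.0954) or papilla replicate 1 (0.0897). For Mmp28 the adjusted p was between 0.0501 and 0.128 without stem cells replicate 1 or 4, papilla replicate 2 or 4, sheath replicate 1 or interfollicular dermis replicate 2.

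Among the ADAMTS genes, Adamts18 had the largest difference between stem cells and each other population. Adamts18 (chromosome 8, 113697123 to 113849343) was at 45.2, 35.9 and 56.6 FPKM in stem cells, 0.469, 0.501 and 1.16 in papilla, 0.459, 0.107 and 0.713 in sheath and 0.0395, 0.194 and 0.406 in interfollicular dermis. No library outside stem cells came near their range. The log2 difference from stem cells was -4.78 in papilla (SE 0.29, adjusted p = 2.56e-06), -5.04 in sheath (SE 0.29, adjusted p = 3.22e-07) and -5.26 in interfollicular dermis (SE 0.29, adjusted p = 1.99e-07). Adamts16, the family member closest to Adamts18, did not exceed 0.489 in any library.

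Adamts6 and Adamts7 followed Adamts18 at lower levels. Adamts6 (chromosome 13, 104286518 to 104496695), like its relative Adamts10, is known for acting on fibrillin microfibrils. Adamts6 was at 7.31, 8.26 and 13.4 FPKM in stem cells, 0.288, 1.45 and 1.30 in papilla, 0.241, 0.405 and 0.906 in sheath and 0.119, 0.185 and 0.224 in interfollicular dermis. Adamts7 (chromosome 9, 90162904 to 90200102), which cuts the cartilage matrix protein COMP, was at 9.39, 5.64 and 13.4 in stem cells, 1.08, 1.60 and 1.79 in papilla, 0.719, 0.305 and 0.389 in sheath and 0.155, 0.193 and 0.750 in interfollicular dermis. Stem cells were above every other library for both genes. Papilla was lower than stem cells by a log2 difference of -2.42 for Adamts6 (SE 0.32, adjusted p = 0.000881) and -2.01 for Adamts7 (SE 0.32, adjusted p = 0.00263). The calls of Adamts18, Mmp11, Adamts6 and Adamts7 in this comparison held in each alternative run.

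For the close relatives Adamts10 and Adamts12 no such difference passed. Adamts10 (chromosome 17, 33523646 to 33553782) was at 27.1, 25.7 and 38.4 FPKM in stem cells, 10.4, 10.04 and 17.8 in papilla, 4.23, 2.32 and 5.89 in sheath and 0.978, 2.41 and 4.64 in interfollicular dermis. Adamts12 (chromosome 15, 11064773 to 11349232), which also cuts COMP, was at 16.3, 15 and 28, then 16, 8.37 and 18.7, then 3.63, 2.32 and 1.17, then 0.349, 0.219 and 3.55 in the same order. Papilla overlapped stem cells for Adamts12 and was below them for Adamts10. Adamts10 differed between papilla and stem cells by -1.21 (SE 0.39, adjusted p = 0.0732), which passed with the replicate block over all 12 libraries (adjusted p = 0.0473) and in the 6 libraries (0.0275). For Adamts12 the difference was -0.45 (adjusted p = 0.608). The difference between the relatives in this step was not tested. Against sheath, papilla was higher for Adamts10 (1.44, SE 0.39, adjusted p = 0.00868) and for Adamts12 (2.19, SE 0.49, adjusted p = 0.00305).

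**Figure D3:**
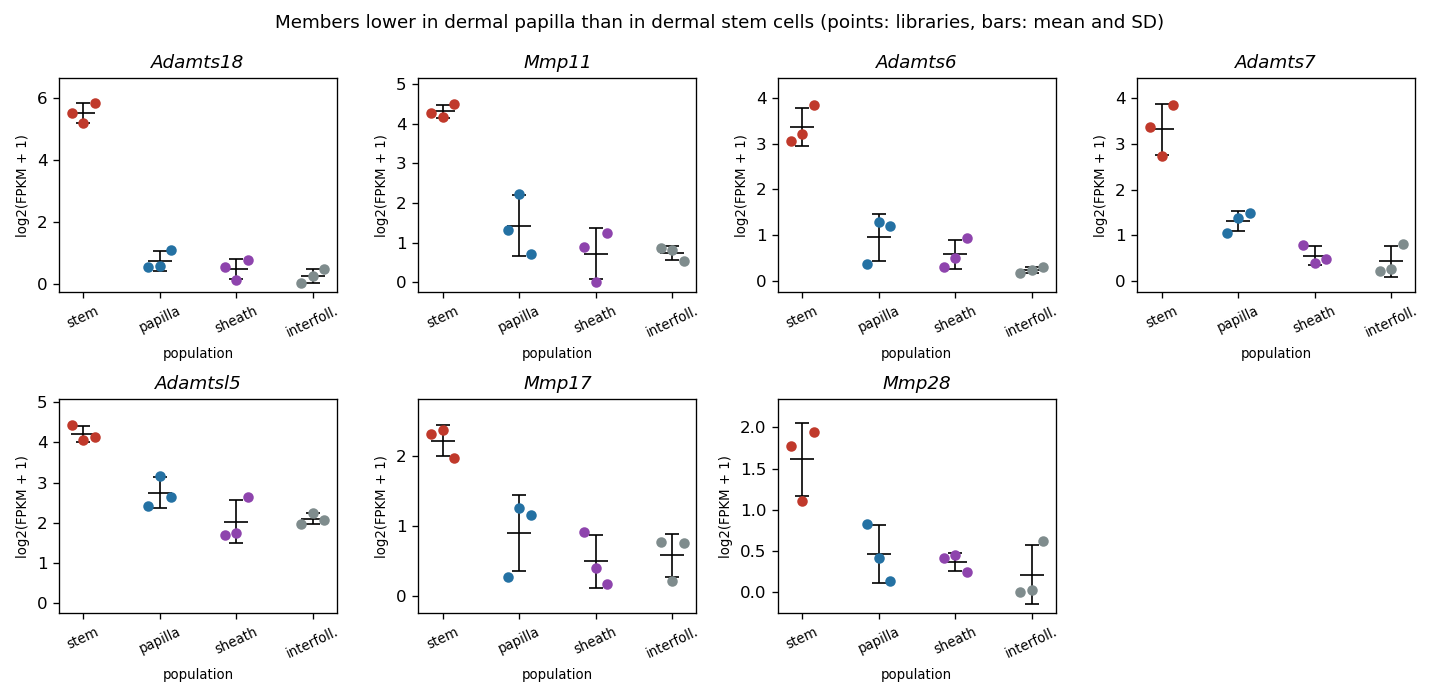
Level as log2(FPKM + 1) in the 4 populations for the 7 members lower in papilla than in stem cells, a panel and a scale for each gene, with points for libraries and bars for mean and SD. In each panel the 3 stem cell libraries are above the other 9, most widely for Adamts18. Mmp28 reached 1 FPKM only in stem cells, and it passed the filter only through them.

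The enzymes that cut aggrecan and versican differed among themselves. Adamts1 (chromosome 16, 85793827 to 85803113), known for cutting versican, was high in all 4 populations, at 67.4, 81.7 and 86.7 FPKM in stem cells, 91.6, 122 and 148 in papilla, 87.9, 53.6 and 71.2 in sheath and 48.1, 39.2 and 83.9 in interfollicular dermis. Every papilla library was above every other library, and the other populations overlapped. Adamts1 was higher in papilla than in interfollicular dermis (log2 difference 1.11, SE 0.30, adjusted p = 0.00984). Its difference from sheath, 0.76, passed as fitted (adjusted p = 0.0489) and had an adjusted p of 0.0211 to 0.174 over the 12 fits that each left out a library. The call ended without any of the stem cell libraries, papilla replicate 2 or 4, sheath replicate 4 or 5, or interfollicular dermis replicate 1, with differences of 0.57 to 0.78. It also ended with the replicate block over all 12 libraries (0.79, adjusted p = 0.0637), quantile normalization (0.68, adjusted p = 0.152), a pseudocount of 0.1 (adjusted p = 0.0507), no filter (0.0922) and no mean-variance trend (0.0604). Adamts1 held 22.3% to 27.8% of the summed ADAMTS level in stem cells, 40.3% to 51.3% in papilla, 56.7% to 67.1% in sheath and 59.4% to 76.4% in interfollicular dermis. The sums themselves were 294 to 370 FPKM, 227 to 289, 89.3 to 155 and 61.9 to 141.

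Adamts5, which encodes aggrecanase-2, lies beside Adamts1 on chromosome 16 (85858157 to 85901125) and had another pattern. Adamts5 was at 32.2, 32.8 and 35.1 FPKM in stem cells, 20.4, 19.6 and 19.4 in papilla, 1.08, 1.70 and 2.92 in sheath and 1.18, 1.97 and 2.13 in interfollicular dermis. The 3 libraries of a population lay close together, and the first 2 populations did not overlap each other or the rest. Sheath was lower than stem cells by a log2 difference of -3.62 (SE 0.25, adjusted p = 1.03e-06). Papilla differed from stem cells by -0.72 (SE 0.25, adjusted p = 0.0964). This passed in a fit of the 6 libraries of this comparison (adjusted p = 0.0468), but not with the replicate block in them (0.0609).

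For Adamts4 and Adamts9 single libraries set the range. Adamts4, aggrecanase-1 (chromosome 1, 171250129 to 171262267), was at 41.0, 31.2 and 28 FPKM in stem cells, 21.1, 27.1 and 15.1 in papilla, 28.9, 8.80 and 4.02 in sheath and 1.43, 3.67 and 21.0 in interfollicular dermis. Adamts9 (chromosome 6, 92772699 to 92944450), another versican-cutting enzyme, was at 13, 12.7 and 20.1, then 7.17, 14.7 and 13.5, then 16, 9.35 and 8.95, then 1.11, 2.71 and 12 in the same order. Sheath replicate 1 and interfollicular dermis replicate 6 were the highest of their groups for both genes. Interfollicular dermis was lower than stem cells for Adamts4 (log2 difference -2.43, SE 0.72, adjusted p = 0.0183) and Adamts9 (-1.77, SE 0.53, adjusted p = 0.0199). The Adamts4 call ended without stem cells replicate 1 (-2.28, adjusted p = 0.0609) or interfollicular dermis replicate 1 (-1.74, adjusted p = 0.0866) or 2 (-2.21, adjusted p = 0.065). The Adamts9 call ended without stem cells replicate 4 (-1.57, adjusted p = 0.0661) or interfollicular dermis replicate 1 (-1.20, adjusted p = 0.0908) or 2 (-1.60, adjusted p = 0.0696). Without interfollicular dermis replicate 6 the differences from stem cells were instead -3.33 for Adamts4 (adjusted p = 0.00146) and -2.51 for Adamts9 (adjusted p = 0.000576). With the replicate block over all 12 libraries they were -3.60 (adjusted p = 0.000167) and -2.47 (adjusted p = 0.00149). Papilla was then also higher than interfollicular dermis, for Adamts4 by 2.68 without that library and 2.95 with the block (adjusted p = 0.00454 and 0.000536) and for Adamts9 by 2.14 and 2.10 (0.00144 and 0.00311). Both scalings added these papilla calls too. The F test over populations ended in 8 of 12 such fits for Adamts4 and in 10 of 12 for Adamts9.

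Adamts20, known from the belted mouse for its part in pigment cell development, was the only member called higher in sheath than in stem cells as fitted. It was at 0.936, 2.52 and 1.32 FPKM in stem cells, 0.510, 5.91 and 1.45 in papilla, 6.48, 3.80 and 7.24 in sheath and 4.67, 3.40 and 1.68 in interfollicular dermis. The sheath and stem cell libraries did not overlap. The log2 difference was 1.41 (SE 0.50, adjusted p = 0.0361), while the F test over the populations did not pass. The adjusted p ran up to 0.119 over the fits that each left out a library, and 4 of the 12 ended the call, those without stem cells replicate 1 or 4 or sheath replicate 1 or 5. The Adamts20 call also ended with median-of-ratios scaling (1.23, adjusted p = 0.0601), with a pseudocount of 0.1 (1.87, adjusted p = 0.0569) and without a filter (adjusted p = 0.0913).

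Of the enzymes that remove the amino-terminal propeptide of procollagen, Adamts2 was the most abundant in the follicle populations. Adamts2 (chromosome 11, 50602085 to 50807573) was at 28.7, 30.5 and 30.7 FPKM in stem cells, 51.5, 29.8 and 42.7 in papilla, 2.79, 2.03 and 0.865 in sheath and 0.906, 2.82 and 4.30 in interfollicular dermis. Papilla exceeded sheath by a log2 difference of 3.90 (SE 0.37, adjusted p = 8.22e-06). Adamts14 was lower, at 4.54, 4.32 and 5.22 in stem cells, 3.28, 2.18 and 2.89 in papilla, 0.524, 0.113 and 0.113 in sheath and 0, 0.390 and 0.847 in interfollicular dermis. Papilla again exceeded sheath (1.60, SE 0.29, adjusted p = 0.000662). Adamts3 was low throughout, at 0.758, 0.373 and 1.89 in stem cells, 0.139, 0.495 and 0.0675 in papilla, 0.423, 0.679 and 0.344 in sheath and 1.40, 1.02 and 1.35 in interfollicular dermis. Adamts3 was the only member called lower in papilla than in interfollicular dermis as fitted (-0.88, SE 0.30, adjusted p = 0.0325). This call ended without papilla replicate 1 or 4 or any of the interfollicular dermis libraries (-0.96 to -0.79, adjusted p up to 0.084). The call also ended with median-of-ratios scaling (-0.77, adjusted p = 0.0672), quantile normalization (-0.69, adjusted p = 0.127) and the replicate block (-0.95, adjusted p = 0.0785). Of the remaining tested ADAMTS genes, Adamts8, Adamts15 and Adamts17 did not exceed 4.93 in any library. Adamts15 and Adamts17 were lower in sheath than in stem cells (-1.49 and -1.76, adjusted p = 0.00466 and 0.00107), and Adamts8 passed in no comparison.

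The ADAMTS-like genes all differed among the populations where tested. Adamtsl5 (chromosome 10, 80339793 to 80349030), which is known to bind fibrillin, was at 20.6, 15.8 and 16.5 FPKM in stem cells, 4.36, 7.98 and 5.28 in papilla, 2.21, 2.38 and 5.27 in sheath and 2.93, 3.77 and 3.23 in interfollicular dermis. Stem cells were above every other library. Adamtsl5 was lower in papilla by a log2 difference of -1.46 (SE 0.30, adjusted p = 0.0101), a call that ended without stem cells replicate 1 (-1.36, adjusted p = 0.0517). Adamtsl4 (chromosome 3, 95676201 to 95687927), a microfibril protein whose loss displaces the eye lens, was at 7.44, 8.30 and 5.71 in stem cells, 7.93, 7.96 and 5.93 in papilla, 1.19, 1.5 and 0.707 in sheath and 0.441, 1.12 and 1.03 in interfollicular dermis. The first 2 populations overlapped, and Adamtsl4 was lower in sheath than in stem cells (-1.94, SE 0.27, adjusted p = 0.000134).

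Adamtsl1 and Adamtsl2 were highest in papilla. Adamtsl1 (chromosome 4, 85513852 to 86428390) was at 6.10, 5.42 and 4.03 FPKM in stem cells, 10.7, 11.5 and 7.76 in papilla, 1.03, 0.682 and 0.340 in sheath and 0.897, 1.01 and 1.80 in interfollicular dermis. Adamtsl2, which binds latent TGF-beta binding protein and fibrillin, was at 0.810, 0.743 and 0.306 in stem cells, 5.55, 3.04 and 1.08 in papilla, 0.0847, 0.0201 and 0 in sheath and 0.335, 0 and 0 in interfollicular dermis. All papilla libraries were above all others for both genes. Adamtsl2 reached 1 FPKM only in the 3 papilla libraries, so it passed the filter only through the population where it is high. Its separation and its papilla comparisons carry that limit. Papilla was higher than sheath for Adamtsl1 (log2 difference 2.71, SE 0.28, adjusted p = 1.46e-05) and Adamtsl2 (1.88, SE 0.37, adjusted p = 0.00116). Against stem cells, Adamtsl1 differed by 0.83 (SE 0.28, adjusted p = 0.0875) and Adamtsl2 by 1.25 (SE 0.37, adjusted p = 0.0541), which passed without papilla replicate 4 (1.68, adjusted p = 0.00553). Both passed with median-of-ratios scaling (adjusted p = 0.0338 and 0.0382) and with quantile normalization (0.0192 and 0.0155). With Mmp3, this made 3 members higher and 6 lower in papilla than in stem cells under either scaling, against 0 and 7 as deposited.

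**Figure D4:**
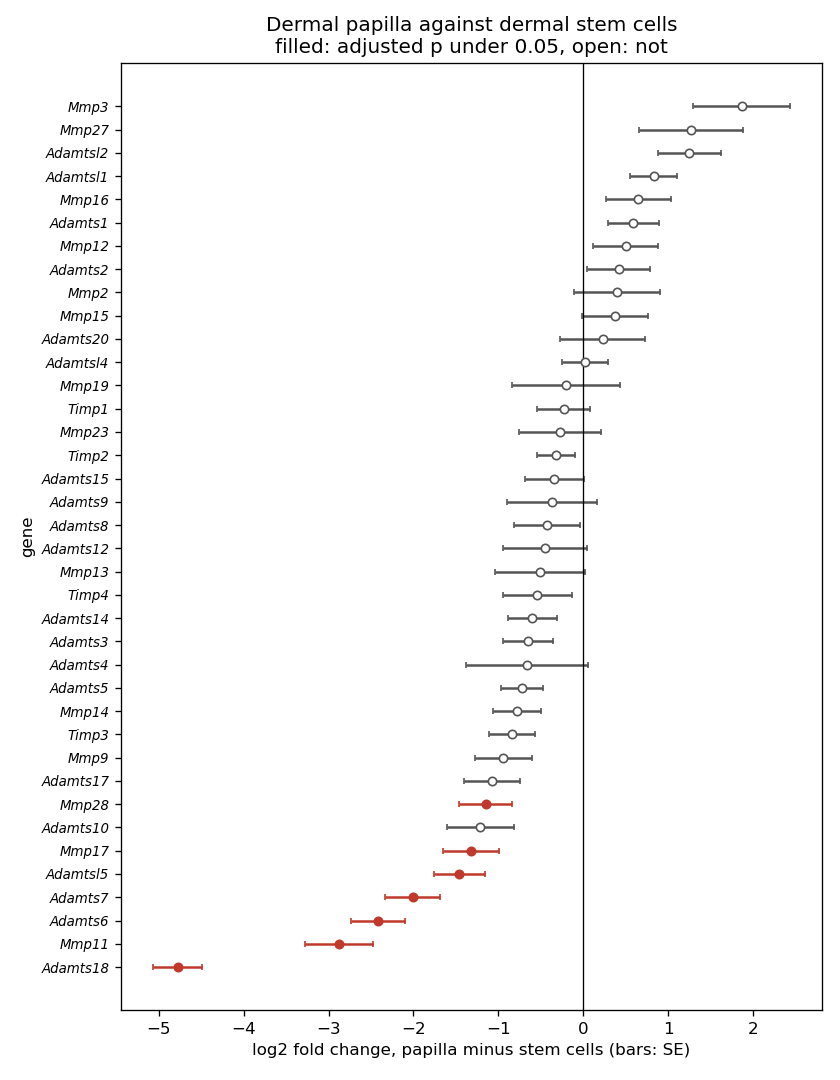
Log2 fold change of each tested member, papilla minus stem cells, on the log2(FPKM + 1) scale, with bars for the standard error and filled points for an adjusted p under 0.05. The 7 filled points are all to the left of 0, and Adamts18 is the farthest at -4.78. Under both alternative scalings Mmp3, Adamtsl2 and Adamtsl1 on the right also pass.

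Of the inhibitors, Timp2 and Timp1 followed the main pattern and Timp3 did not. Timp2 (chromosome 11, 118301061 to 118355411), which also serves in the activation of Mmp2 by Mmp14, was at 339, 271 and 256 FPKM in stem cells, 285, 212 and 201 in papilla, 22.3, 25.4 and 26.2 in sheath and 18.2, 21.8 and 28 in interfollicular dermis. Timp1 (chromosome X, 20870166 to 20874737), a secreted inhibitor, was at 33.7, 44.7 and 41.0 in stem cells, 44.9, 32.7 and 25.9 in papilla, 4.03, 3.82 and 1.5 in sheath and 1.97, 2.5 and 3.82 in interfollicular dermis. For both genes the first 2 populations overlapped and lay above all libraries of the other 2. Sheath was lower than stem cells by a log2 difference of -3.49 for Timp2 (SE 0.22, adjusted p = 5.3e-07) and -3.37 for Timp1 (SE 0.31, adjusted p = 6.97e-06).

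Timp3 (chromosome 10, 86300412 to 86349505), the matrix-bound inhibitor, was at 101, 122 and 117 FPKM in stem cells, 48.7, 94.8 and 53.2 in papilla, 145, 139 and 225 in sheath and 38.5, 35.3 and 37.2 in interfollicular dermis. No 2 of the 4 populations overlapped, and the order from high to low was sheath, stem cells, papilla and interfollicular dermis. Sheath was higher than interfollicular dermis (log2 difference 2.13, SE 0.27, adjusted p = 0.00131), and papilla was lower than sheath (-1.38, SE 0.27, adjusted p = 0.00111). Timp3 was the only tested member called in the first of these comparisons and the only one called lower in papilla in the second. Interfollicular dermis was lower than stem cells (-1.59, SE 0.27, adjusted p = 0.000671). The neighbours sheath and stem cells differed by 0.54 (SE 0.27, adjusted p = 0.12), which passed only with quantile normalization among the alternatives run (1.0, adjusted p = 0.00576). Papilla differed from stem cells by -0.84 (SE 0.27, adjusted p = 0.0715), which passed with the replicate block over all 12 libraries (adjusted p = 0.0486) but not in the 6 libraries of this comparison (0.0815), and passed without papilla replicate 2 (-1.14, adjusted p = 0.0194). Papilla was higher than interfollicular dermis by 0.75 (adjusted p = 0.0395), a call that ended without papilla replicate 2 (0.45, adjusted p = 0.159), stem cells replicate 2 (0.75, adjusted p = 0.0524) or interfollicular dermis replicate 1 (0.77, adjusted p = 0.0748), 2 (0.71, adjusted p = 0.0988) or 6 (0.75, adjusted p = 0.0683), without a filter (0.0697) and without a mean-variance trend (0.0506).

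Timp4 was near the filter in all populations, at 0.997, 0.818 and 1.09 FPKM in stem cells, 0.118, 1.08 and 0.0516 in papilla, 1.06, 1.24 and 0 in sheath and 0, 0.332 and 1.46 in interfollicular dermis, and no comparison passed. Timp3 made up 21.3% to 28.2% of the summed TIMP level in stem cells, 12.9% to 27.9% in papilla, 82.0% to 89.0% in sheath and 52.8% to 65.7% in interfollicular dermis. The shares of Timp2 were 61.6% to 71.4%, 62.2% to 75.3%, 10.4% to 15% and 31.0% to 39.8%. Summed TIMP levels were 415 to 475 FPKM in stem cells, 280 to 379 in papilla, 169 to 252 in sheath and 58.6 to 70.5 in interfollicular dermis. Summed MMP levels were 443 to 473, 319 to 552, 57.6 to 64.4 and 27.4 to 67.1. Summed TIMP per summed MMP was thus 0.916 to 1.0, 0.601 to 1.07, 2.63 to 4.38 and 1.05 to 2.14, and the sheath range lay above the others. These are ratios of transcript levels, and no test was run on them.

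**Figure D5:**
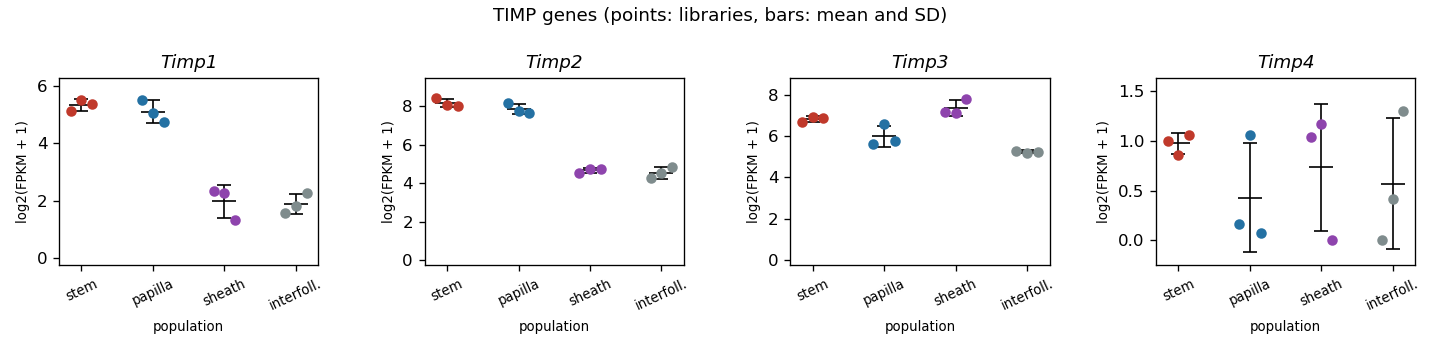
Level of the 4 TIMP genes as log2(FPKM + 1) in each population, with points for libraries and bars for mean and SD. Each panel has its own scale. Timp1 and Timp2 are lower in sheath and interfollicular dermis than in the first 2 populations, and Timp3 is highest in sheath, at 139 to 225 FPKM.

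Other genes of matrix proteolysis were read from 4 lists, chosen like the members with earlier results known. Against stem cells, 19.6% of all tested genes were lower and 24.3% higher in sheath. The shares were 17.9% and 19.7% in interfollicular dermis, and 6.38% and 2.31% in papilla. In list order, median log2 differences of sheath minus stem cells were -1.62, -1.17, -2.68 and -3.01, beside 0.13 over all genes. For papilla minus stem cells they were -0.27, 0.13, 0.26 and -0.07, beside -0.25. Of 11 tested ADAM and astacin proteases, 1 was higher and 3 were lower in papilla than in stem cells. Adam23 was higher, at 19.0 ± 6.37 against 4.41 ± 0.822 FPKM (mean and SD, n = 3 each; log2 difference 1.85, adjusted p = 0.00665 by limma), and Adam33 was lower, at 6.63 ± 1.43 against 21.3 ± 4.88 (-1.54, adjusted p = 0.00403 by limma). In sheath 8 of the 11 were lower than in stem cells and 0 higher, and the same counts held for interfollicular dermis. Papilla was higher than sheath for 8 and lower for 1, Adam10, the general sheddase (-0.95, adjusted p = 0.0106). Over all tested genes 16.4% were higher and 33.4% lower in this comparison.

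Of 14 tested activators and inhibitors of matrix proteolysis, 8 were lower in sheath than in stem cells, 8 were lower in interfollicular dermis, and 0 were higher in either. The largest differences were those of Serpinf1 (log2 difference -5.01 for sheath, SE 0.27, adjusted p = 1.85e-07) and of Reck, a membrane-anchored MMP inhibitor (-3.34, SE 0.26, adjusted p = 2.23e-06). In papilla 2 were higher than in stem cells and 0 lower, namely Spock3 (2.97, adjusted p = 0.000695) and the protease inhibitor Serpine2 (2.34, adjusted p = 0.0303).

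Of 18 tested substrates and partners, 14 were lower in sheath and 15 in interfollicular dermis than in stem cells, and 0 were higher. Collagen genes led these differences, and Col1a1, Col1a2 and Col3a1 also belong to the fibroblast markers above. In papilla 2 were lower than in stem cells. They were Acan, which encodes the aggrecan cut by Adamts4 and Adamts5 (14.8 ± 9.01 FPKM in stem cells, 0.385 ± 0.518 in papilla, n = 3 each, log2 difference -3.43, adjusted p = 0.000241 by limma), and the proteoglycan Bgn (-1.99, adjusted p = 0.00277). The fibronectin gene Fn1 was the only list member higher (1.15, adjusted p = 0.0193). Bgn was higher in sheath than in interfollicular dermis (1.88, adjusted p = 0.00965). Of 11 other matrix-degrading proteases, 9 were lower and 1 was higher in sheath than in stem cells. In interfollicular dermis 9 were lower than in stem cells and 0 higher. The lower genes were led by the collagen-cutting Ctsk (-5.04 in sheath and -4.52 in interfollicular dermis, adjusted p = 3.22e-07 and 4.31e-07) and Htra3 (-4.78 and -4.86, adjusted p = 2.84e-06 and 2.19e-06). Sheath was higher than interfollicular dermis for 1 of the 11. In papilla Dpp4 was higher (2.52, adjusted p = 0.00285) and Mme lower (-2.28, adjusted p = 0.000878) than in stem cells.

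The 13 members that missed the filter were Mmp1a, Mmp1b, Mmp7, Mmp8, Mmp10, Mmp20, Mmp21, Mmp24, Mmp25, Adamts13, Adamts16, Adamts19 and Adamtsl3. Mmp1b and Mmp24 were listed at 0 in all 12 libraries. The highest values of the others were 1.66 for Adamts19, 1.41 for Mmp10, 1.04 for Adamtsl3 and 1.02 for Mmp21, each in a single library, and the remaining 7 did not exceed 0.499. A value of 0 in an FPKM table can be a failed estimate, so absence is not claimed for any of them.

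Some members share their locus with another gene, and whether the counting used strand is not given in the sources used here. Timp1, Timp3 and Timp4 lie inside the synapsin genes Syn1, Syn3 and Syn2 on the opposite strand. These neighbours reached at most 0, 1.90 and 0.436 FPKM in any library, far below Timp1 and Timp3. Mmp11 partly overlaps Chchd10, which reached 8.71, Mmp19 overlaps Tmem198b (14.3) and Adamts7 overlaps Tbc1d2b (13.7), all on the opposite strand. Reads of these pairs cannot be told apart without strand, and the values of Mmp11, Mmp19 and Adamts7 carry that limit.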

How the data were processed

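RNA was measured in 12 libraries of sorted skin cells, 3 for each of 4 populations. Per the labels' protocols, messenger RNA was captured with the Dynabeads mRNA DIRECT Micro kit and SOLiD libraries were sequenced. What the authors deposited is 1 table of FPKM values per gene and library. The submitters' processing notes name TopHat2 2.0.13, SAMtools, Cufflinks 2.2.1 and mm10, and the annotation, settings and use of strand are not given in the sources used here. Summed FPKM per library ran from 181683 to 262695. The table holds no read counts, so no counting interval is attached to a value.

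Values were analysed as log2(FPKM + 1), a pseudocount of 1, for genes that reached 1 FPKM in 3 or more libraries. In R 4.3.3, limma 3.58.1 was fitted to all 12 libraries with a mean per population and a mean-variance trend (8 residual degrees of freedom, 4.61 prior). A moderated F test and 6 pairwise contrasts were used, two-sided, with Benjamini-Hochberg adjustment over all 12774 tested genes within a contrast and a threshold of 0.05. A fold change on this scale understates the change of low genes. The script was tested on simulated data. Values in every library are given for members that passed the F test and averaged at least 5 FPKM in a population and for the TIMPs, and a few others were named after their values were seen. In the other lists, up to 3 genes per comparison with the largest change among those that passed were eligible to be named. The members, gene lists and tests were chosen with earlier results of these data known.

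Same-numbered dermal stem cell and dermal papilla libraries deviated together from their group means across genes (correlations of 0.306, 0.241 and 0.389). For other populations same-numbered libraries did not do so throughout. The largest correlation, 0.445, was between dermal sheath replicate 1 and interfollicular dermis replicate 6. The main fit had no replicate block, since the labels do not say what a number marks. A block was run only as an alternative. The alternatives were other pseudocounts, filters and scalings, no trend, the replicate number as a block, fits of 6 libraries, and leaving out libraries. Loci and promoters are those of RefSeq on GRCm38.p6, where all 51 members were found by Entrez identifier, and overlaps were read from GENCODE on the same assembly. The result for 1 overlapping gene is not reported here. The authors' annotation may differ.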

Additional observations from a re-analysis of the deposited data

How the results depend on the processing

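No call of a single member in the main fit turned its direction in any alternative run. The all-gene median of dermal sheath minus dermal stem cells did turn, from 0.13 to -0.04 with median-of-ratios scaling. The number of members called between dermal papilla and dermal stem cells, 7 as fitted, was 4 without dermal stem cells replicate 1 and 4 to 9 over the fits that each left out a library. The number between dermal sheath and interfollicular dermis, 1 as fitted, was 2 without interfollicular dermis replicate 6 (Adamts9 was added, log2 difference 2.11, adjusted p = 0.0183), 1 to 2 over such fits, and 2 with the replicate block over all 12 libraries (Adamts4 was added, 2.79, adjusted p = 0.0255). With the replicate block, dermal papilla against dermal stem cells gave 8 members over all 12 libraries and 6 in the 6 libraries of that comparison, of which 5 were among the 7. The block over all 12 libraries ended 9 of the 135 calls of single members, and a pseudocount of 0.1 ended 8. Without a filter 15 calls ended, with median-of-ratios scaling 3 and with quantile normalization 6. Leaving out 1 library ended 4 to 12 of the 135, with 12 ended without dermal stem cells replicate 1 and 12 without interfollicular dermis replicate 1. Without both dermal papilla replicates 1 and 2, 9 of the 50 recomputed calls ended. An alternative chosen after seeing the data, without dermal sheath replicate 1 and interfollicular dermis replicate 6 together, ended 5. The other counts of members stayed within 1.5 times. The limits are 3 libraries per population, no read counts, and few fibroblast transcripts in libraries with the labels dermal sheath or interfollicular dermis. A further limit is the low sum of dermal papilla markers in dermal papilla replicate 1.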
